A study of Mus musculus with 9 samples.

Results

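The 4 genes of the mouse nuclear factor I (NFI) family, Nfia, Nfib, Nfic and Nfix, were taken from the 45808 gene symbols of the count table and compared between control and Foxd2 mutant cells. Nfia was chosen by its own values in this comparison, since its reads went from almost none in control to clear expression in the mutant clone. The other 3 genes were taken in as its paralogs, whatever their own values. The difference in Nfia is therefore given as a description without a test, whereas the differences in the paralogs were tested.

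RNA was sequenced from mK4, a cell line of mouse embryonic kidney mesenchyme grown here in medium with fetal bovine serum. The control group (n = 5) had the wild-type Foxd2 genotype and had received CRISPR/Cas with a guide that targets no gene. The mutant group (n = 4) was the clone F7, which carries a homozygous frameshift in Foxd2, a forkhead transcription factor gene. All mutant libraries came from this 1 clone, so the clone and the genotype cannot be told apart. The labels do not say that replicates were separate cultures, and p-values measure only the spread between these libraries. In bulk RNA, fewer cells of a type and less RNA per cell cannot be told apart.

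NFI proteins are transcription factors that bind DNA as dimers of one another, through a conserved DNA-binding region near the start of the protein, at a palindromic site. The members differ mainly in the second part of the protein, which activates or represses transcription. In mice Nfia is known for switching neural progenitors towards glia, Nfib for maturation of lung and brain, Nfic for growth of tooth roots and Nfix for fetal muscle and brain. Loss of 1 copy of NFIA in humans causes brain malformation together with urinary tract defects.

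The genes lie on 3 chromosomes of the mm10 genome. Nfia (ENSMUSG00000028565.18) spans chr4:97772734-98118874 on the plus strand and Nfib (ENSMUSG00000008575.17) spans chr4:82290173-82705750 on the minus strand, 15.07 Mb away. Nfic (ENSMUSG00000055053.18) spans chr10:81396186-81455635 and Nfix (ENSMUSG00000001911.16) spans chr8:84699876-84800344, both on the minus strand. Foxd2, the edited gene, lies 16.79 Mb beyond Nfia on chromosome 4. The merged exons measure 10.89 kb for Nfia, 14.96 kb for Nfib, 6.63 kb for Nfic and 7.351 kb for Nfix.

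The paralogs are close enough in their coding sequence that the assignment of reads was checked first. The stretch of 90 coding bases in which the other genes were most like Nfia is shown because it is where reads of one member could most easily be taken for another. It lies in coding exon 2 of each gene, at chr4:97783109-97783198 (Nfia), chr4:82498653-82498742 (Nfib), chr10:81420682-81420771 (Nfic) and chr8:84772199-84772288 (Nfix). Each is printed 5′ to 3′ on the coding strand from the GENCODE M21 transcripts, and capitals mark the bases that differ from Nfia.
Nfia: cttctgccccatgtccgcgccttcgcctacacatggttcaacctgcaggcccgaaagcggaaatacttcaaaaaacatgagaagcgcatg
Nfib: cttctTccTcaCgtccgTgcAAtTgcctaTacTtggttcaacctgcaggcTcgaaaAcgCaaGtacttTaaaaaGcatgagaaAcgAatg
Nfic: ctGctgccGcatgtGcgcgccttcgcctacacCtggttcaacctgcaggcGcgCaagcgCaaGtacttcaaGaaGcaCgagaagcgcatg
Nfix: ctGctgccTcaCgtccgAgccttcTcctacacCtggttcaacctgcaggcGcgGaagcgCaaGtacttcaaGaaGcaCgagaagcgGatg

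In this stretch Nfib was identical to Nfia at 81.1% of bases, Nfic at 87.8% and Nfix at 84.4%. The longest run of coding bases shared exactly between Nfia and any other member was 17 bases, and the longest between any pair was the 32 bases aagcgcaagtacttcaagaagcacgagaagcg, common to Nfic and Nfix. Across all annotated transcripts, none of the 11026 different 50-base windows of Nfia occurred in another member, and no such window was shared by any pair. Reads of at least this length without mismatches thus separate the 4 genes. No read length is given in the sources used.

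The library totals ran from 6041556 to 16032175 counts, with F7 replicates 3 and 4 the shallowest. Of 14 kidney mesenchyme markers, 11 were at 1 CPM (counts per 1000000 of the library total, after scaling by a TMM factor) or more in every library, among them Pax2, while Wt1 and Six2 had no read in any library. Their summed level ran from 2902 to 3595 CPM in control and from 2725 to 3103 CPM in F7, most of it Vim, a filament gene of mesenchyme at large. Without Vim, a split made after its values were seen, the sum was 1103 ± 80.1 CPM in control (SD, n = 5) and 549 ± 24.7 CPM in F7 (SD, n = 4). Cdh6 held the largest part of this sum, at 529 ± 44.6 CPM in control and 212 ± 18.6 CPM in F7. Not every marker fell, since Gdnf measured 24.4 ± 4.46 CPM in control and 30.9 ± 5.20 CPM in F7 and was not called. Markers of other cell types were at or near 0: all 8 endothelial markers, all 8 muscle and fat markers, 7 of 8 neuronal, 6 of 8 blood cell and 9 of 10 glial markers stayed under 1 CPM in every library. Foxd2 itself measured 3.11 to 4.27 CPM in control and 14.5 to 23.3 CPM in F7, and a frameshift cannot be seen in a gene's read count. Of the 14730 tested genes, edgeR called 35.3% at an adjusted p under 0.05, 17.4% as higher in F7 and 17.9% as lower. Among the kidney mesenchyme markers, edgeR called 6 of 11 tested genes lower, Pax2 among them, and none higher. The part of these markers' fall in the results on NFI genes was not tested.

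Nfia, the member that drives early glial genes in mouse spinal cord, was close to absent in control cells and clearly present in F7. Control replicates 1 to 5 held 12, 3, 2, 2 and 3 reads, and F7 replicates 1 to 4 held 629, 550, 321 and 384 reads. Scaled by library total and TMM factor, these are 0.722, 0.222, 0.166, 0.185 and 0.252 CPM in control and 45.9, 47.1, 53.8 and 58.6 CPM in F7. Every F7 library lay far above every control library, and F7 replicates 3 and 4 lay above replicates 1 and 2.

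The mean Nfia level was 0.309 ± 0.233 CPM (SD, n = 5) in control and 51.4 ± 5.97 CPM (SD, n = 4) in F7, a ratio of 166. The fitted log2 fold change was 7.20, the 6th highest of all tested genes. Its SE depended on the method, at 0.21 in this fit, 0.33 in DESeq2 and 0.37 in limma voom. Because Nfia was picked for this rise, no test is attached to it. Control replicate 1 held 12 of the 22 control reads, and without it the log2 fold change was 7.87. The authors' deposited table gave 7.27.

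**Figure D1:**
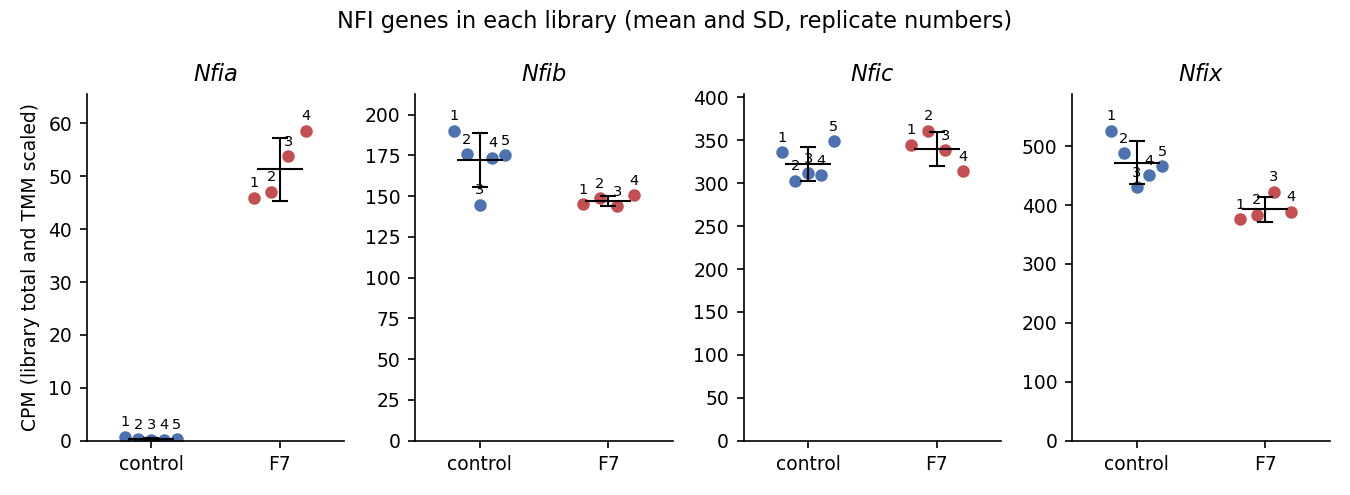
Each panel plots 1 NFI gene in CPM from 0, with a point for each library (its replicate number above it) and a bar for the group mean with its SD (control n = 5, F7 n = 4). Nfia stands under 1 CPM in all control libraries and between 45.9 and 58.6 CPM in F7, while the F7 libraries of Nfix lie below all controls and those of Nfib and Nfic overlap the control range.

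Of the 3 paralogs, Nfib and Nfix were called slightly lower in F7 and Nfic was not called. A share of 2 in 3 genes lower stands beside 17.9% called lower among all tested genes. The changes were small: 48.9% of tested genes had a smaller absolute fold change than Nfib, 19.4% a smaller one than Nfic and 55.0% a smaller one than Nfix.

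Nfib, which in mice is needed for the lung to mature, measured 190, 176, 145, 174 and 175 CPM in control replicates 1 to 5. F7 replicates 1 to 4 measured 145, 149, 144 and 151 CPM. The groups overlapped through control replicate 3, which lay at the level of the F7 libraries, while the other controls lay above them. Mean levels were 172 ± 16.6 CPM in control (SD, n = 5) and 147 ± 3.16 CPM in F7 (SD, n = 4). The log2 fold change was -0.23 (SE 0.07, 95% interval -0.38 to -0.07, edgeR adjusted p = 0.0284).

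The call on Nfib was not stable. It was lost in 10 of 21 other settings, all of which kept the direction (adjusted p from 0.00175 to 0.17 over the 21). Leaving out control replicate 1 (adjusted p = 0.0689), control replicate 4 (0.0511), F7 replicate 1 (0.0798), F7 replicate 2 (0.0617) or F7 replicate 3 (0.0687) ended it, as did removing the trend of fold change with transcript length, which brought the log2 fold change to -0.12 (edgeR adjusted p = 0.103). Without control replicate 3 it was larger (-0.28, edgeR adjusted p = 0.00175).

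Nfic, which in mice is needed for tooth roots to form, measured 336, 303, 312, 309 and 349 CPM in the controls and 345, 361, 339 and 314 CPM in F7. The groups overlapped over most of their range. The means were 322 ± 19.8 CPM (SD, n = 5) and 340 ± 19.4 CPM (SD, n = 4). The log2 fold change of 0.08 (SE 0.07) did not pass (edgeR adjusted p = 0.383), and its 95% interval ran from -0.07 to 0.22, that is from 0.955-fold to 1.17-fold. None of 21 other settings called it.

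Nfix, a regulator of the switch from embryonic to fetal muscle in mice, measured 526, 488, 431, 450 and 465 CPM in control replicates 1 to 5. F7 replicates 1 to 4 measured 376, 383, 422 and 388 CPM. All F7 libraries lay below all controls, but F7 replicate 3 came close to control replicate 3. The control mean of 472 ± 36.8 CPM (SD, n = 5) stood against 392 ± 20.6 CPM in F7 (SD, n = 4). The log2 fold change was -0.27 (SE 0.07, 95% interval -0.42 to -0.11, edgeR adjusted p = 0.0122). The call was lost when F7 was reduced to replicates 3 and 4 (-0.21, edgeR adjusted p = 0.164) and narrowly without F7 replicate 1 (-0.24, edgeR adjusted p = 0.0501).

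**Figure D2:**
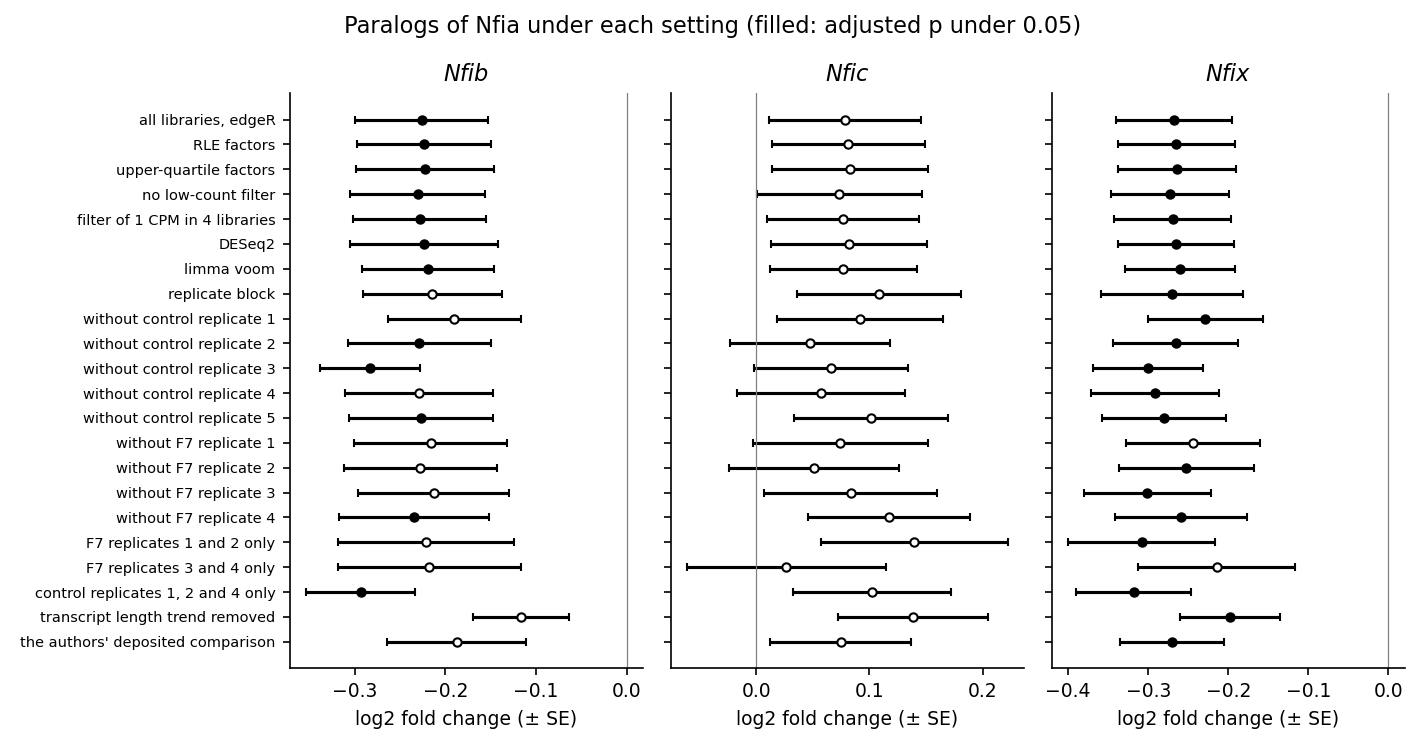
Log2 fold change of F7 over control with its SE for Nfib, Nfic and Nfix, under the reported fit (top row) and 21 other settings, with filled points for an adjusted p under 0.05. Nfib and Nfix stayed below 0 and Nfic above 0 in every setting shown, while Nfib passed the threshold in 11 of the 21 and Nfix in 19.

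Nfix lies on chromosome 8, where most genes were lower in F7. Of the 730 other tested genes of that chromosome, 82.3% had a log2 fold change below 0, and their median was -0.35. Nfix at -0.27 lay within this range, since 62.2% of them were lower than Nfix. Within 1 Mb of Nfix, 27 of 58 tested genes were called lower and 3 higher, with a median of -0.31. Among all tested genes, 17.9% were called lower and 17.4% higher.

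Library by library, Nfix stood close to the rest of its chromosome. The median of the other chromosome 8 genes lay between -0.37 and -0.31 from the control mean on the log2 scale in the 4 F7 libraries. Relative to that median, Nfix lay at 0.04, 0.06, 0.16 and 0.06 in F7 replicates 1 to 4 and at 0.12, 0.04, -0.11, -0.08 and 0.02 in control replicates 1 to 5. On this relative scale the F7 values lay above 0 and overlapped the control values. The part of the chromosome in the fall of Nfix was not tested.

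Nfia was picked for its rise, so that it stood above the tested genes around it was set by that choice. Of 6 tested genes within 1 Mb of Nfia none was called by edgeR at an adjusted p under 0.05, and their median log2 fold change was 0.02. The nearest on either side were the noncoding gene Gm12696, 250.4 kb away, at 0.09 (edgeR adjusted p = 0.366) and Tm2d1, 236.5 kb away, at -0.11 (0.614). Usp1, which encodes a deubiquitinase of DNA repair, was at 0.07 (0.389), and the AP-1 gene Jun, 2721 kb away, at -1.03 (0.0584). Farther out than Usp1, Pgm1 was called higher (0.41) and Ror1 was called lower (-3.32). Their middles lay 2.013 and 2.324 Mb from that of Nfia. Over the rest of chromosome 4, 128 of 921 tested genes were called higher and 149 lower, with a median of -0.01. Among all tested genes, 17.4% were called higher and 17.9% lower.

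Genes on the opposite strand were also examined, because nothing states whether the counting used strand. The coding gene E130114P18Rik overlaps the start of Nfia on the minus strand by 5345 bases. It had no read in any of the 9 libraries. Genes that overlap Nfib held at most 7 reads per group, and Gm16104, antisense to Nfic, held 15 reads in control and 12 in F7. Lyl1, a blood transcription factor gene, and G430095P16Rik overlap Nfix and held 75 and 68 reads in control, against 30940 for Nfix.

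Around Nfib, 4 of 8 tested genes within 1 Mb were called higher and none lower, beside 17.4% and 17.9% of all tested genes. The median log2 fold change of the 8 was 0.12, while Nfib itself was at -0.23 and below all of them. Its nearest tested genes were Zdhhc21, a palmitoyltransferase gene (-0.21, edgeR adjusted p = 0.132), Gm11185 (0.64, 0.0192) and the junction scaffold gene Mpdz (-0.07, 0.488). Lurap1l, the next gene on the side of Mpdz, lay 1335 kb away, outside that window (1.04, edgeR adjusted p = 0.000106). Around Nfic, with a median of 0.03, 9 of 64 tested genes were higher and 10 lower, again beside 17.4% and 17.9% of all tested genes. Its neighbours Fzr1 (-0.05, edgeR adjusted p = 0.557), Dohh (0.13, 0.211) and Ncln (0.16, 0.0731) were not called, whereas Celf5, an RNA-binding protein gene, rose (0.74, edgeR adjusted p = 0.000112). Beside Nfix, Dand5, an antagonist of Nodal and BMP signals, fell by 1.45 on the log2 scale (edgeR adjusted p = 0.000199), Gadd45gip1 by 0.64 (0.00289) and G430095P16Rik by 1.02 (0.0428), and Lyl1 was at -0.69 (0.0914).

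**Figure D3:**
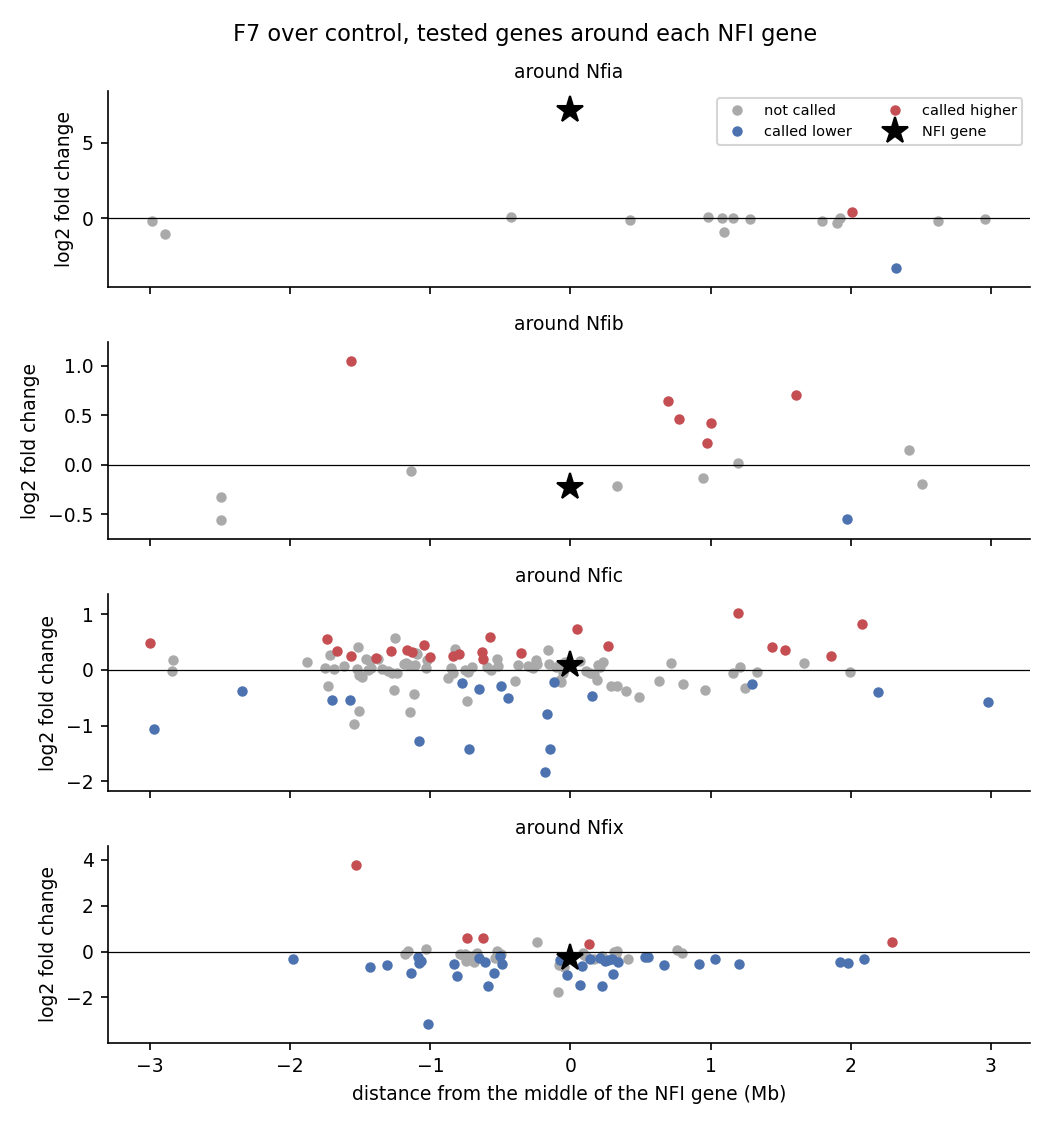
Log2 fold change of F7 over control for the tested genes within 3 Mb of each NFI gene (star), by distance from its middle, with points coloured by the edgeR call. Nfia, picked for its rise, stands at 7.20 above its neighbours, of which Ror1 at -3.32 was called lower. Nfix at -0.27 lies among neighbours of which most are below 0.

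Per length, Nfix and Nfic made up most of the NFI transcripts in these cells, and Nfia became a minor but measurable member in F7. In control the order was Nfix (64.2 ± 5.01 CPM per kb of merged exons), Nfic (48.5 ± 2.99), Nfib (11.5 ± 1.11) and Nfia (0.0284 ± 0.0214; SD, n = 5 for each). No neighbours in this order overlapped over the control libraries. In F7 the levels were 53.4 ± 2.80 CPM per kb for Nfix, 51.2 ± 2.93 for Nfic, 9.82 ± 0.212 for Nfib and 4.72 ± 0.548 for Nfia (SD, n = 4 for each).

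In F7 Nfix and Nfic overlapped, Nfix being above Nfic in 2 of 4 libraries against 5 of 5 in control. The ratio of Nfix to Nfic per kb was 1.33 ± 0.107 (SD, n = 5) in control and 1.04 ± 0.0870 (SD, n = 4) in F7. Nfib stayed above Nfia in all F7 libraries, by a ratio of 2.10 ± 0.228 (SD, n = 4). Merged exons count every annotated isoform, and transcripts that use fewer of them have a higher level than this scale gives.

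The summed level of the family overlapped between the groups. Nfia went from 0.0222% to 3.96% of the summed NFI level per kb, Nfib from 9.23% to 8.25%, Nfic from 39.1% to 43.0% and Nfix from 51.7% to 44.8% (group means). The sum of Nfib, Nfic and Nfix ran from 115 to 135 CPM per kb in control and from 110 to 118 in F7, and with Nfia added the F7 libraries reached 116 to 123. These ranges overlapped. Among all tested genes with a known length, the mean level per kb of Nfix was above 94.5% in control and 92.8% in F7, that of Nfic above 92.6% and 92.4%, and that of Nfib above 64.9% and 60.5%. In F7 Nfia was above 40.0%.

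**Figure D4:**
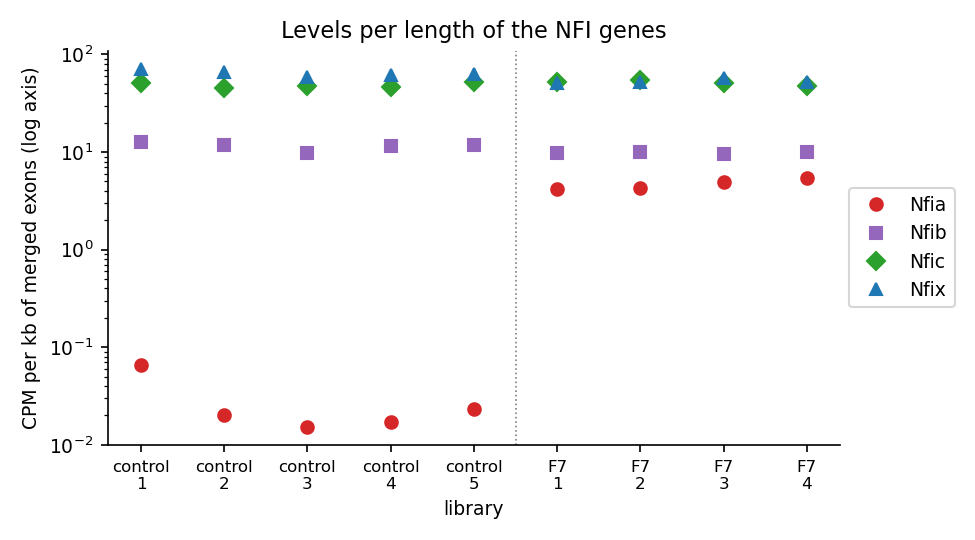
Level of each NFI gene in each library in CPM per kb of merged exons, on a log axis, control libraries left and F7 libraries right of the dotted line. In control the 4 genes keep 1 order, while in F7 Nfix and Nfic overlap near 50 and Nfia lies between 4.22 and 5.38, just below Nfib.

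The genes whose pattern over the 9 libraries was most like that of Nfia were Sash1, Ptgs2, AI662270, Flnc and Rhox5, out of 11664 tested genes whose mean log2 CPM was 2 or more. Likeness was the root mean square difference of log2 CPM after centring each gene, and was 0.60, 0.68, 0.87, 1.22 and 1.28. Since Nfia was picked for its rise, this measure returns genes with a large rise, here with log2 fold changes from 4.80 to 8.52. Sash1, Ptgs2, AI662270 and Rhox5, at 0.0306, 0.0870, 0.414 and 2.04 CPM in control, reached the required mean level only through F7, as did Nfia. Flnc, at 3.92 CPM in control, lay close to that level there. The likeness is therefore a description. Sash1, a scaffold protein gene, had 2 reads in all controls and 11.8 ± 1.54 CPM in F7 (SD, n = 4). Ptgs2, the inducible cyclooxygenase, measured 36.7 ± 19.6 CPM in F7 and varied more between F7 libraries than Nfia. The filamin gene Flnc (3.92 ± 1.88 to 106 ± 23.6 CPM) and the homeobox gene Rhox5 (2.04 ± 1.99 to 67.3 ± 4.84 CPM) were already measurable in control. None of the 5 lies on chromosome 4.

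The genes most like the paralogs followed them more closely, since all these patterns are shallow. For Nfib the nearest were the histone acetyltransferase gene Crebbp (0.04) and Zbtb1 (0.04), for Nfic Mrps18a (0.04) and Ostf1 (0.04), and for Nfix Znfx1 (0.04) and Rapgef6 (0.04). No NFI gene was among the 5 nearest of another.

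Of 64 genes that have been tied to NFI factors in other tissues or as their partners, 35 passed the filter on low counts, 7 were called higher and 10 lower. That is 48.6% called, beside 35.3% of all tested genes, and the median log2 fold change of the 35 was -0.11, against -0.01 for all tested genes. With F7 reduced to replicates 3 and 4, 4 were higher and 6 lower. The lists were chosen with earlier results of these data known and no set test was run. The shares called here and below are therefore descriptions.

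Among genes that depend on NFI in the mouse nervous system, edgeR called none higher. Of 21 listed, 10 were tested and 3 were lower (median log2 fold change -0.18). That is 30.0% called, beside 35.3% of all tested genes, of which 17.4% were higher and 17.9% lower. The astrocyte genes Gfap, Aldh1l1, S100b and Mmd2 stayed under the filter in both groups, Gfap with 12 reads in all controls and 1 in all F7 libraries. Fabp7, Aqp4, Sparcl1, Gabra6, Wnt7a and Insc had no read in any library.

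Apcdd1, a Wnt inhibitor that Nfia and Sox9 activate in mouse spinal cord, measured 43.3, 44.8, 33.3, 36.5 and 30.4 CPM in control and 18.5, 22.8, 22.6 and 20.1 CPM in F7. All F7 libraries lay below all controls. An effect of Nfia on Apcdd1 or on other listed genes was not tested. The log2 fold change was -0.85 (SE 0.12, edgeR adjusted p = 0.000160). Agt, the angiotensinogen gene, fell from 2.47 ± 0.942 to 0.708 ± 0.571 CPM (-1.99, edgeR adjusted p = 0.00461), and the Nfix target Bbx fell by 0.28 (0.0208), a call that was lost in 5 of 21 other settings. With F7 replicates 3 and 4 alone Agt was at -1.12 and not called (edgeR adjusted p = 0.161). Agt lies on chromosome 8.

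The glutamate transporter gene Slc1a3, abundant in both groups, measured 1297 to 1561 CPM in control and 1583 to 1845 CPM in F7, without overlap, and missed the threshold (0.22, edgeR adjusted p = 0.0531). It was called higher in 8 of 21 other settings, DESeq2 (adjusted p = 0.0115), limma voom (0.0358) and the authors' deposited table (0.00307) among them. Zcchc24, another gene that Nfia and Sox9 activate together in mouse spinal cord, was at 0.20 (0.111). The Notch target Hes1, which Nfia represses in mouse hippocampus, measured 262, 620, 110, 270 and 213 CPM in control and 172, 176, 35.2 and 27.0 CPM in F7. It varied severalfold within both groups and was not called (-1.49, SE 0.73, edgeR adjusted p = 0.154).

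Of 29 genes reported as NFI-dependent in other tissues, 15 were tested, 6 rose and 3 fell (median 0.10). That is 60.0% called, beside the 35.3% of all tested genes. Cyclin D1 (Ccnd1), whose induction NFIC limits in human breast cancer cells, had the largest rise of the list. It measured 5.12, 3.77, 13.7, 12.3 and 19.4 CPM in control and 110, 108, 52.5 and 54.5 CPM in F7, without overlap. F7 replicates 1 and 2 were about alike and higher than replicates 3 and 4. The log2 fold change was 2.95 (SE 0.49, edgeR adjusted p = 0.00310).

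Cdkn1a, the cell cycle inhibitor p21, and Trp53, the p53 gene, are reported as repressed by NFIA in human glioma cells, and both were higher in F7. Cdkn1a rose from 57.6 ± 16.0 to 101 ± 21.0 CPM (0.82, edgeR adjusted p = 0.0110). Trp53 rose by a smaller 0.26 (0.0150). With F7 reduced to replicates 3 and 4, Cdkn1a (0.54, edgeR adjusted p = 0.144) and Trp53 (0.17, 0.220) were not called, and Trp53 was also not called without F7 replicate 2 (0.0605).

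Aqp5, a water channel of lung and glands, rose from 11.6 ± 2.74 to 31.7 ± 8.07 CPM (1.48, edgeR adjusted p = 0.000187) and Mecom, a transcription factor of blood stem cells, from 18.1 ± 1.21 to 26.9 ± 2.23 CPM (0.58, 0.000183). Igf1, a growth factor, measured 40.9, 54.0, 45.6, 34.9 and 35.9 CPM in control and 5.62, 6.59, 11.2 and 10.1 CPM in F7, so that each F7 library was well below each control. It had the largest fall of the list, -2.42 (SE 0.21, edgeR adjusted p = 5.63e-06). The alveolar and podocyte membrane protein gene Pdpn also fell, from 89.8 ± 4.33 to 52.6 ± 10.0 CPM (-0.79, edgeR adjusted p = 9.1e-05). Mmp9, a matrix protease, was called at a low level (1.40 ± 0.334 to 0.606 ± 0.413 CPM, edgeR adjusted p = 0.0167), and not without F7 replicate 1 (0.0763), without F7 replicate 2 (0.0655) or with F7 replicates 3 and 4 alone (0.305). The fat genes Cidea and Ucp1 and the muscle genes Ckm and Mstn held 0 to 3 reads in each group.

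Among partners and regulators of NFI factors, 1 of 10 tested genes rose and 4 fell (median -0.12), of 14 listed. That is 5 of 10 called, again beside 35.3% of all tested genes. Sox9, which switches Nfia on in mouse spinal cord, measured 67.7, 94.2, 47.5, 58.3 and 55.1 CPM in control and 80.5, 79.8, 56.0 and 49.0 CPM in F7. The groups overlapped throughout (0.05, SE 0.22, edgeR adjusted p = 0.874). Of the Notch genes, Notch1 was at -0.05 (0.790) and Notch2 at -0.18 (0.200), and the Notch effector Rbpj was called at 0.19 (edgeR adjusted p = 0.0465), a call that was lost in 11 of 21 other settings.

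Foxa1 and Nr3c1, genes of transcription factors that work with NFI at shared sites, were lower. Foxa1, which meets NFI factors at prostate genes in mice and humans, fell from 16.9 ± 0.983 to 8.88 ± 1.78 CPM (-0.97, SE 0.13, edgeR adjusted p = 6.36e-05). The glucocorticoid receptor gene Nr3c1 fell from 186 ± 10.4 to 149 ± 6.73 CPM (-0.32, edgeR adjusted p = 0.00167). Both genes were called in all 21 other settings. Ski, a co-repressor that binds NFI proteins, was at -0.26 (edgeR adjusted p = 0.0151), a call that was lost in 4 of the 21, without F7 replicate 1 (0.0655), without F7 replicate 2 (0.0613) and with F7 replicates 3 and 4 alone (0.268) among them. Olig2 and Pou3f2 had no read, and Sox10 and Pax6 stayed under the filter.

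Glial markers were low in both groups. Of 10, 9 stayed under 1 CPM in every library, Aqp4, Olig1 and Olig2 had no read, and their summed level ran from 3.28 to 6.67 CPM in control and from 2.14 to 2.75 CPM in F7.

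**Figure D5:**
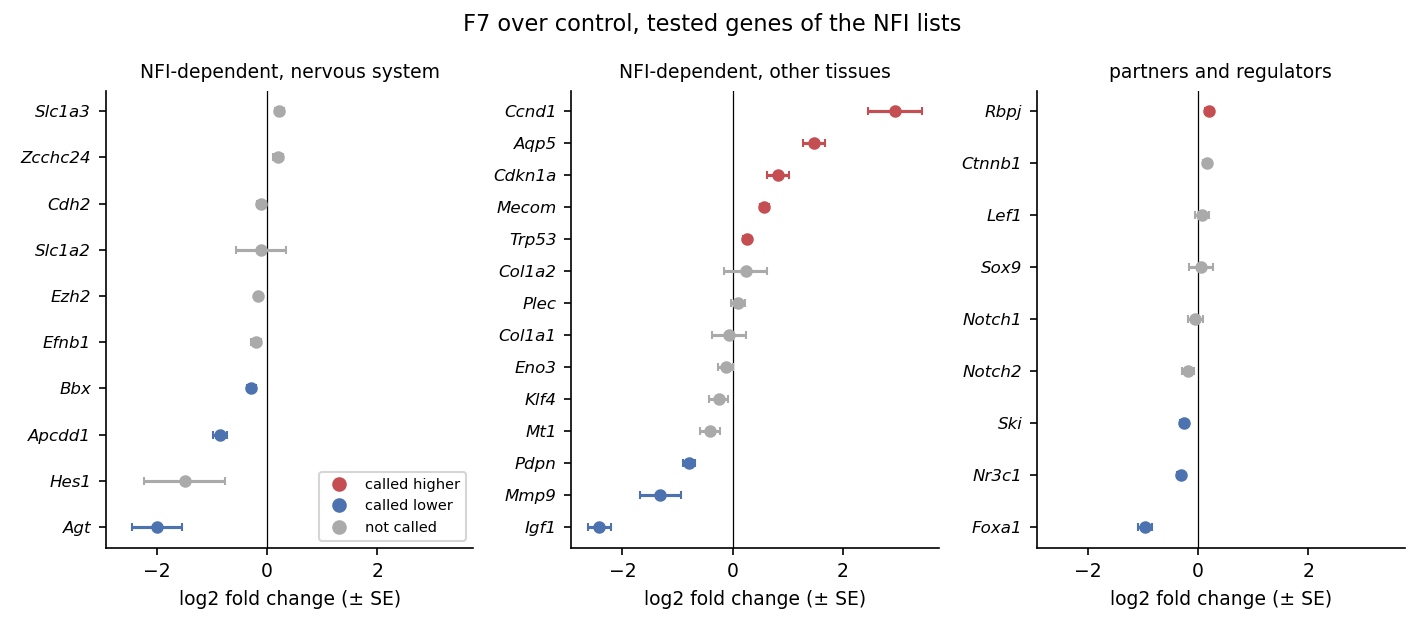
Log2 fold change of F7 over control with its SE for 33 of the 35 tested genes of the 3 NFI lists, coloured by the edgeR call. The nervous system list holds no gene called higher, the list from other tissues runs from Igf1 at -2.42 to Ccnd1 at 2.95, and the partners run from Foxa1 at -0.97 to Rbpj at 0.19.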

How the data were processed

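The submitters' processing notes name the mm10 build, featureCounts, DESeq2 1.18.1 and R 3.4.3. No aligner, annotation or strand setting is given in the sources used here. What the authors deposited are raw counts of reads per gene symbol, the input of every test, and a signal table in which each column of counts is divided by 1 size factor, used only to check the raw table: the ratio was constant within each library. The authors' deposited comparison holds log2 fold changes and adjusted p-values. In each per-library file 1 F7 column matches no sample here and was not used, though the authors' comparison may include it. The raw headers of F7 replicates 3 and 4 read mk3 where the titles and the normalized table read mK4, and clone and replicate number were used to match them.

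The test was edgeR 4.0.16 (robust quasi-likelihood, TMM factors, group only) in R 4.3.3 on raw counts of the 14730 genes kept by filterByExpr (minimum count 10, minimum total 15), with Benjamini-Hochberg adjustment over all of them and a threshold of 0.05. SE is the log2 fold change over the square root of F. Intervals use the model's degrees of freedom. Lengths and positions came from GENCODE M21 (mm10), matched by symbol for 93.9% of tested genes. No replicate pair agreed within sampling noise, and some pairs were closer than others. The chi-square per degree of freedom was 3.17 for F7 replicates 1 and 2 and 3.61 for 3 and 4. It was 4.94 for control replicates 4 and 5 and 6.35 for 1 and 2, but 32.7 for 1 and 3. The test took all libraries of a group as independent and did not model such grouping. The members, lists and tests were chosen with earlier results of these data known. The text names the members, Foxd2, the nearest 2 tested genes on each side, the 5 genes of most similar pattern, and up to 5 called genes per NFI list by adjusted p. Further list genes, kidney mesenchyme markers among them, and Pgm1 and Ror1 were named after their values were seen. A few list genes enter the counts but are not reported here by name. Promoter windows were matched for 9037 of the tested genes, too small a share of them for the planned motif comparison, which is void. Alternatives were RLE and upper-quartile factors, 2 filters, DESeq2 1.42.0, limma 3.58.1 voom, a replicate block, each library left out, parts of either group, removal of a transcript length trend, levels without TMM factors and the authors' table.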

Additional observations from a re-analysis of the deposited data

Results flagged for a closer look

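Control replicate 1 stood apart from the other controls in Nfia, at 0.722 CPM where the others lay between 0.166 and 0.252 CPM. Its gap to the next library was 0.844 of the range of the group, above the critical value of 0.71 for 5 samples. This was the 1 flag among 8 groups checked, and chance flags about 1 in 20 groups. The value rests on 12 reads.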

How the results depend on the processing

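Every alternative kept the direction of all 4 log2 fold changes. Nfia ran from 7.04 to 7.87 when each library was left out in turn, the highest without control replicate 1. Nfib ran from -0.28 to -0.19 and Nfix from -0.30 to -0.23 over the same fits. Nfib lost its call at -0.22 when F7 held just replicates 1 and 2 (edgeR adjusted p = 0.116), at -0.22 with replicates 3 and 4 alone (0.17), at -0.12 with the length trend removed (0.103) and at -0.19 in the authors' deposited table (0.0687). Nfix lost its call at -0.21 with F7 replicates 3 and 4 alone (0.164). That setting also called 2160 genes in all, against 5196, and 4 higher and 6 lower genes of the NFI lists, against 7 and 10. It holds fewer and shallower libraries. With control replicates 1, 2 and 4 alone, 6832 genes were called in all, and 8 higher and 13 lower genes of the NFI lists. In that setting Nfib was at -0.29 (edgeR adjusted p = 0.00182) and Nfix at -0.32 (0.00343). The length trend removal tested only genes with a known length. Levels per kb without TMM factors moved by less than the spread between replicates.

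Replicate numbers are shared between the groups, but same-numbered samples did not deviate together (correlations -0.05, 0.07, 0.21 and -0.05), so the numbers were not taken as pairs. With the replicate block 5151 genes were called, Nfib was at -0.21 (edgeR adjusted p = 0.0582), and Hes1 was called lower at -1.78 (0.0431), its single call in 21 settings. Of the F7 libraries, just replicate 3 correlated best with the control of its own number. Depth limits Nfia in control, where 22 reads carry the whole value.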
